A study of Mus musculus with 2 samples.

Results

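The genes described here are 10 transcription factor genes of the B lineage, Ebf1, Pax5, Lef1, Tcf3, Foxo1, Ikzf1, Spib, Bach2, Irf4 and Irf8, chosen by name from the 32285 genes of a single-cell RNA sequencing study of mouse liver at postnatal day 15. The study compared 1 c-Maf KO library with 1 control library, each made from FACS-sorted endothelial and hematopoietic cells that pooled 1 male and 1 female mouse. Both libraries were made with the 10X Chromium droplet method, in which each captured transcript carries a unique molecular identifier (UMI). The labels place the c-Maf KO in endothelial cells, with no word on the allele, the driver of the deletion or the mouse strain. The 10 genes were followed in 4 deposited clusters of B lineage cells, named CLP, B1, B2 and B3, and in C1, a deposited cluster of cycling hematopoietic cells. With 1 library per group there is no replicate, so each difference is given with an interval for counting error only and with no p-value. The pooled mice cannot be counted as replicates either.

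B cells are made from lymphoid progenitors, in the liver around birth and later in bone marrow. The E protein encoded by Tcf3 and the zinc finger protein encoded by Ikzf1 (Ikaros) act early in this path, Ebf1 specifies the B lineage, and Pax5 commits cells to it by activating B cell genes and repressing those of other lineages. Foxo1 drives the recombinase genes and Il7r in precursors, Irf4 and Irf8 act with Ets factors such as Spi1 and Spib as precursors leave the pre-B stage, Lef1 acts downstream of Wnt signalling in precursors, and Bach2 represses the plasma cell programme.

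The promoters of Foxo1 and Bach2 are shown because each held, outside annotated exons, a motif of 7 or more letters for a factor of the same set. The windows come from RefSeq (GRCm38.p6), were searched over the 250 bases before each start site, and covered all 10 members. The Foxo1 window is printed without its last base, which lies in an annotated exon. On chr3:52268087-52268335, plus strand, the Foxo1 window held the Ebf1 motif, TCCC and GGGA with any 2 bases between them, 92 bases before the start site, printed in capitals. On chr4:32417185-32417434, plus strand, the Bach2 window held the composite of an Ets site and an Irf site, GGAA and GAAA with any 2 bases between them, on the minus strand with its first printed base 17 bases before the start site, so that the capitals read as its reverse complement. This window, the 1 searched for Bach2, lies inside the gene as GENCODE M21 places it (32238804 to 32586108). The bases before that annotated gene start were not searched.
Foxo1: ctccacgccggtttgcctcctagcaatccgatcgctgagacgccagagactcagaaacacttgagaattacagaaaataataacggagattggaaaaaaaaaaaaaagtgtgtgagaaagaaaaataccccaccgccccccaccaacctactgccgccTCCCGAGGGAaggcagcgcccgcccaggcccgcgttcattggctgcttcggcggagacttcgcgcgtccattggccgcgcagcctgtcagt
Bach2: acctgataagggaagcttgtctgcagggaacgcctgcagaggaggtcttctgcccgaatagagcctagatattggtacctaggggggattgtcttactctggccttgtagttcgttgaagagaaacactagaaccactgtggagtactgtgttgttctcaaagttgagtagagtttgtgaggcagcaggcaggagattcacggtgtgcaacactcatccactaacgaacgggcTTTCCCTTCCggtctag
Over all 32851 promoter windows of the table, searched on both strands, 0.779% held this Ebf1 motif and 2.30% held this composite. The motifs GTAAACA (Foxo1) and CTTTGAA (Lef1) were in no window of the 10 genes, against 3.17% and 4.46% of all windows. The Irf motif of GAAA and GAAA with any 2 bases between them, in 2.98% of all windows, was found once, in an Ebf1 window that lies inside an annotated exon and is not printed. The shorter motifs, CANNTG and its Tcf3 form CAGGTG and the Ikzf1 motif TGGGAA, were in 66.2%, 17.2% and 21.6% of all windows. These are matches of letters in a window and say nothing of binding.

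The c-Maf KO library held 8166 annotated cells and 51774798 UMIs in them, and the control library held 7669 cells and 45157041 UMIs. Of the annotated cells, 21 barcodes occurred in both libraries. The CLP cluster held 239 c-Maf KO and 55 control cells, B1 held 1114 and 295, B2 held 850 and 618, B3 held 479 and 831, and C1 held 637 and 272. Median UMIs per cell lay between 2872 in B2 and 7714 in C1 of the c-Maf KO library, and between 3167 in B2 and 9101 in C1 of the control library. The control values of CLP therefore rest on few cells, and they also come mostly from 1 of the mice: 43 of the 55 control CLP cells were female-type (Xist detected, no Y-linked UMI) and 4 were male-type (the reverse), against 97 and 70 of the 239 c-Maf KO cells. Cells with neither or both kinds of transcript belong to no type. In B1 the female-type and male-type cells numbered 442 and 315 in the c-Maf KO library, against 214 and 29 in the control library. In C1 they numbered 314 and 160 in the c-Maf KO library, against 208 and 22 in the control library.

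Maf itself checked the labels: summed over the endothelial clusters it had 162 CPM (the UMIs of a gene scaled by all UMIs of those cells) in the c-Maf KO library, against 2070.1 CPM in the control library, a log2 ratio of -3.68. In the B lineage clusters Maf was low in both libraries, and by the call rule given later it was lower in the c-Maf KO library in CLP, B2 and C1. It had 86.5 CPM in c-Maf KO CLP cells, against 137 CPM in control CLP cells, and 26.5 CPM in c-Maf KO B1 cells, against 32.0 CPM in control B1 cells.

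The cluster names were checked against their markers. Cells of the CLP cluster were led by Vpreb1 and Igll1, the surrogate light chain genes, and by Dntt, which encodes terminal transferase, and had 247 CPM of Il7r in the c-Maf KO library and 249.6 CPM in the control library. The progenitor marker Flt3 had 0 UMIs in c-Maf KO CLP cells and 5 UMIs in control CLP cells, and Cd34 had 5 and 0 UMIs. Kit had 25.1 CPM in c-Maf KO CLP cells and 35.7 CPM in control CLP cells. The name, that of a common lymphoid progenitor, is therefore not borne out by Flt3 and Cd34, and the cells are called the CLP cluster here. B1 held Rag1 at 295 CPM in the c-Maf KO library and 274 CPM in the control library, and little Vpreb1 (46.2 and 38.0 CPM). Rag1 was also found in CLP cells and does not set B1 apart from them. B3 held the mature B cell genes Ighd, at 563 CPM in the c-Maf KO library and 569.5 CPM in the control library, and Fcer2a, at 355 and 368 CPM.

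Each member followed its own course over the clusters, and for most of them the course had the same shape in both libraries. The clusters were made from the same cells, so the comparisons between them are descriptions. Ebf1 (chromosome 11, 44617317 to 45008091, plus strand; GENCODE M21 on GRCm38, as for the other genes) had 4919 CPM in c-Maf KO CLP cells and 4294 CPM in c-Maf KO B1 cells, then 2009 CPM in B2 and 1372 CPM in B3. In the control library it had 4115 CPM in CLP, 4571 CPM in B1, 2041 CPM in B2 and 1269.5 CPM in B3. The step between B1 and B2 was 2.14-fold down in the c-Maf KO library and 2.24-fold down in the control library. CLP and B1 stood in opposite order: B1 was 1.15-fold lower than CLP in the c-Maf KO library and 1.11-fold higher in the control library.

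Pax5 (chromosome 4, 44524757 to 44710487, minus strand) kept to a narrow range through CLP, B1 and B2, where it had 361, 383 and 411 CPM in the c-Maf KO library and 276, 353 and 353 CPM in the control library. It was lower in B3, with 269 CPM in the c-Maf KO library and 255 CPM in the control library. Between neighbouring clusters from CLP to B2 the interval of the ratio held equality in each case but 1, B1 over CLP in the control library (log2 ratio 0.35, 0.02 to 0.70).

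Tcf3 (chromosome 10, 80409514 to 80433647, minus strand) and Foxo1 (chromosome 3, 52268336 to 52353221, plus strand) stood high in CLP and B1 and were lower in B2 and lower again in B3. Tcf3 had 466, 484, 225 and 121 CPM from CLP to B3 in the c-Maf KO library, against 439.8, 524, 215 and 126 CPM in the control library. Foxo1 had 243, 228, 158 and 104 CPM in the c-Maf KO library, against 226, 258, 159.7 and 99.2 CPM in the control library. From CLP to B3 that was 3.86-fold down for Tcf3 in the c-Maf KO library and 3.49-fold down in the control library, and 2.33-fold and 2.29-fold down for Foxo1.

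Lef1 (chromosome 3, 131110471 to 131224356, plus strand), a factor that answers to Wnt signals, was close to an on-off mark of CLP among CLP, B1, B2 and B3. It had 665 CPM (95% interval 617 to 715) in c-Maf KO CLP cells and 532 CPM (457 to 616) in control CLP cells, and 29.0 CPM (23.4 to 35.4) in c-Maf KO B1 cells and 35.0 CPM (24.4 to 48.6) in control B1 cells. The step was 22.8-fold down in the c-Maf KO library and 15.03-fold down in the control library. In B2 and B3 it stayed between 12.7 and 15.4 CPM in the c-Maf KO library and between 9.72 and 18.0 CPM in the control library.

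Spib, Bach2, Ikzf1 and Irf4 shared a peak in B1. Spib (chromosome 7, 44525993 to 44532071, minus strand), an Ets factor, had 179, 686, 563 and 215 CPM from CLP to B3 in the c-Maf KO library, against 157, 595, 463 and 182 CPM in the control library. Bach2 (chromosome 4, 32238804 to 32586108, plus strand) had 256, 534, 176 and 128 CPM in the c-Maf KO library, against 249.6, 559.6, 180.04 and 92.9 CPM in the control library. Bach2 was 3.03-fold lower in B2 than in B1 in the c-Maf KO library and 3.11-fold lower in the control library, whereas Spib was 1.22-fold and 1.28-fold lower there and had its larger step, 2.61-fold and 2.54-fold, between B2 and B3. Ikzf1 (chromosome 11, 11685003 to 11772926, plus strand) had 152, 349, 197 and 164 CPM in the c-Maf KO library, against 163, 312, 187 and 146 CPM in the control library. Irf4 (chromosome 13, 30749226 to 30766976, plus strand) had 87.4, 171, 83.9 and 53.3 CPM in the c-Maf KO library, against 68.3, 153, 87.5 and 74.9 CPM in the control library.

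Irf8 (chromosome 8, 120736358 to 120756694, plus strand), the relative of Irf4, peaked 1 cluster later, in B2. It had 191, 276, 447 and 209 CPM from CLP to B3 in the c-Maf KO library, against 205, 217, 429.5 and 169.7 CPM in the control library. CLP and B3 did not differ beyond counting error in either library, nor did CLP and B1 in the control library. So, among CLP, B1, B2 and B3 only, the members divide into a gene high in CLP alone (Lef1), genes high in CLP and B1 (Ebf1, Tcf3, Foxo1), genes with a peak in B1 (Spib, Bach2, Ikzf1, Irf4), a gene with a peak in B2 (Irf8), and Pax5, whose level varied least. Antisense genes overlap exons of Pax5, Lef1, Foxo1 and Bach2 in the annotation, and the sources do not say whether the counting used the strand, so reads of such a pair cannot be told apart.

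**Figure D1:**
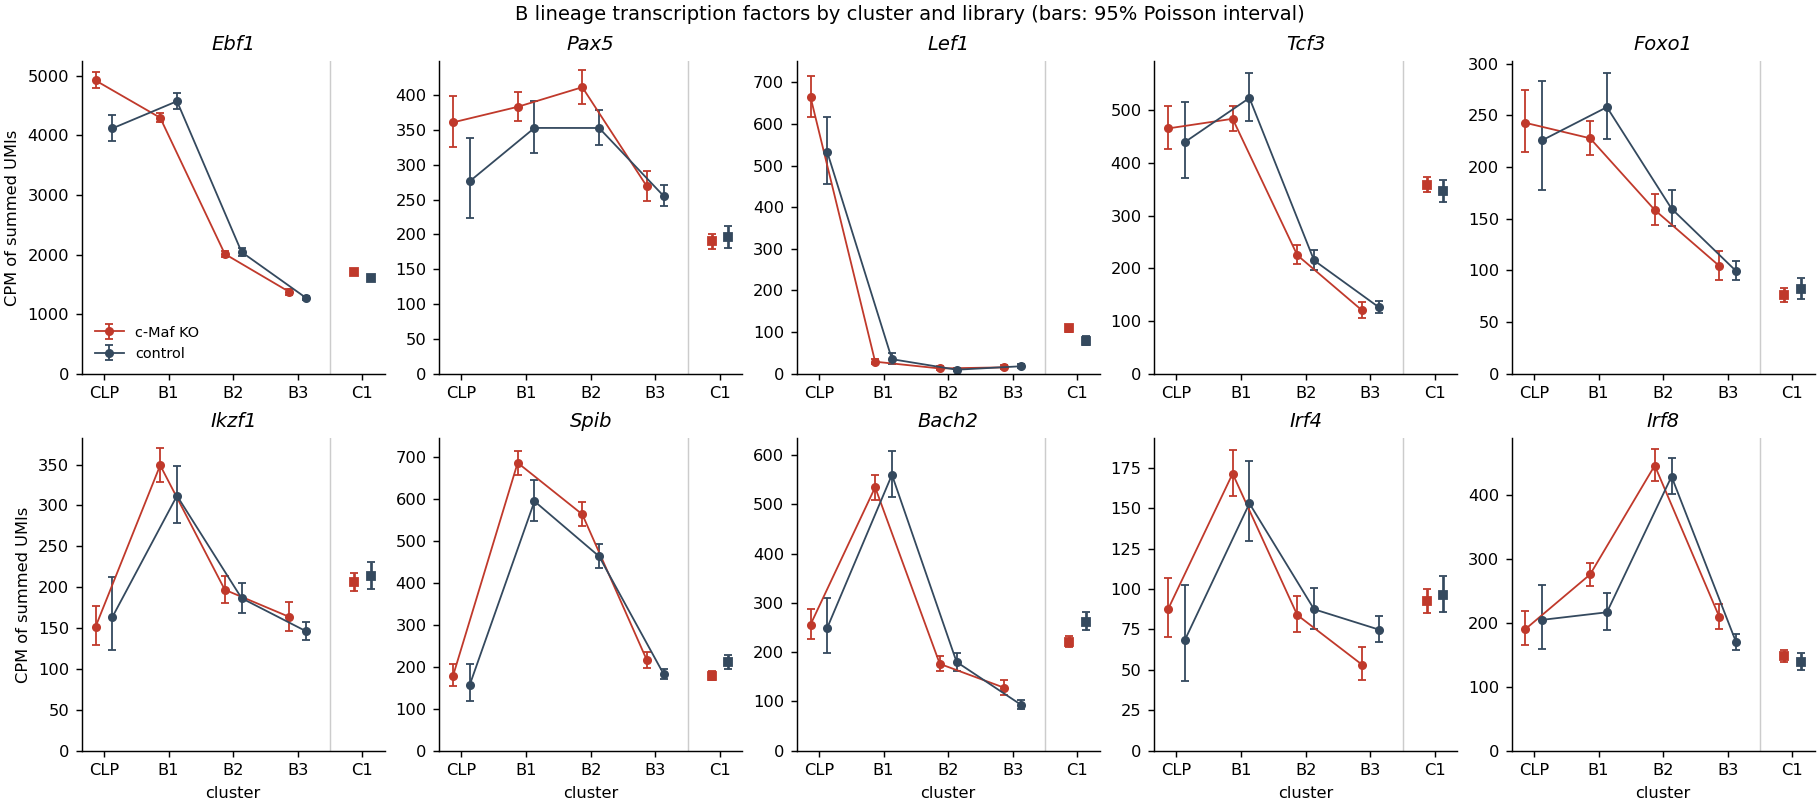
Level of each gene (CPM of UMIs summed per cluster and library, y axes linear from 0) in clusters CLP, B1, B2 and B3, joined by lines, and in C1, shown apart; red is c-Maf KO and dark blue is control, and bars are 95% Poisson intervals. Both libraries trace similar shapes: Lef1 drops from 665 and 532 CPM in CLP to 29.0 and 35.0 CPM in B1, and Irf8 peaks in B2 at 447 and 429.5 CPM.

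Within each cluster the libraries lay close together for all 10 genes. A gene was called different at 1.5-fold or more, with a 95% interval clear of equality and at least 50 UMIs over both libraries. In the CLP cluster 0 of 10 members were called higher, beside 2.3% of all 4051 genes tested there, and 0 lower, beside 3.14%. In B1 the count was 0 higher and 0 lower, beside 2.05% and 1.66% of 6820 genes, and in B2 it was 0 and 0, beside 1.95% and 1.69% of 7268 genes. In B3 it was 0 and 0, beside 1.8% and 1.26% of 7767 genes, and in C1 0 and 0, beside 1.49% and 2.2% of 8811 genes. All 10 members held enough UMIs to be tested in each of the 5 clusters. With so few genes of the table called, a count of 0 among 10 members does not set them apart.

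The largest differences inside a cluster fell short of the 1.5-fold limit. Bach2 had 128 CPM in c-Maf KO B3 cells, against 92.9 CPM in control B3 cells (log2 ratio 0.46, 95% interval 0.23 to 0.68). Irf4 had 53.3 CPM in c-Maf KO B3 cells, against 74.9 CPM in control B3 cells (-0.49, -0.81 to -0.18). These were the widest gaps among the mature cells, and the 2 genes lay on opposite sides of equality.

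Spib lay to one side of equality in all 3 clusters past CLP, with log2 ratios of 0.21 (0.08 to 0.34) in B1, 0.28 (0.17 to 0.40) in B2 and 0.24 (0.07 to 0.41) in B3. In C1 it lay on the other side (-0.23, -0.37 to -0.09). Irf8 had log2 ratios of 0.35 (0.13 to 0.57) in B1 and 0.30 (0.13 to 0.47) in B3, and 0.06 (-0.07 to 0.18) in B2. In the CLP cluster the 3 genes whose intervals excluded equality were Ebf1 (0.26, 0.17 to 0.34), Pax5 (0.38, 0.05 to 0.73) and Lef1 (0.32, 0.08 to 0.57), none of them called. The intervals bound only what counting error could hide: for Ebf1 they stayed between -0.14 and 0.34 over the 5 clusters. For Irf4 in CLP the interval ran to 1.08 and for Lef1 in B2 to 1.24. Counting error alone could thus hide differences up to those sizes at that depth. Variation between mice and between libraries is not in these intervals, so they do not bound a difference between the genotypes.

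The picture changed when CLP, B1, B2 and B3 were pooled. Then all 10 members lay above equality, and 3 of 10 were called higher in the c-Maf KO library, beside 7.54% of 9864 genes tested, and 0 of 10 lower, beside 3.77%. Lef1 had 95.2 CPM in pooled c-Maf KO cells, against 39.7 CPM in pooled control cells (log2 ratio 1.26, 1.08 to 1.45). Bach2 had 300.3 CPM in pooled c-Maf KO cells, against 182 CPM in pooled control cells (0.72). Spib had 481 CPM in pooled c-Maf KO cells, against 309.6 CPM in pooled control cells (0.64). Ebf1 and Tcf3 lay at 0.58 each, just inside the limit.

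The mix of clusters moved with this. Of the cells in the 4 clusters, CLP made up 8.91% in the c-Maf KO library and 3.06% in the control library, B1 made up 41.5% and 16.4%, B2 31.7% and 34.4%, and B3 17.9% and 46.2%. When the cluster levels of both libraries were weighted by the control library's share of UMIs per cluster, a calculation added after the cell numbers were seen, Lef1 lay at 0.15, Bach2 at 0.12, Spib at 0.25, Ebf1 at 0.03 and Tcf3 at -0.03. By that weighting 0 of 10 members lay 1.5-fold or more from equality. Whether a sorted sample held more precursors or fewer mature B cells cannot be told from shares.

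**Figure D2:**
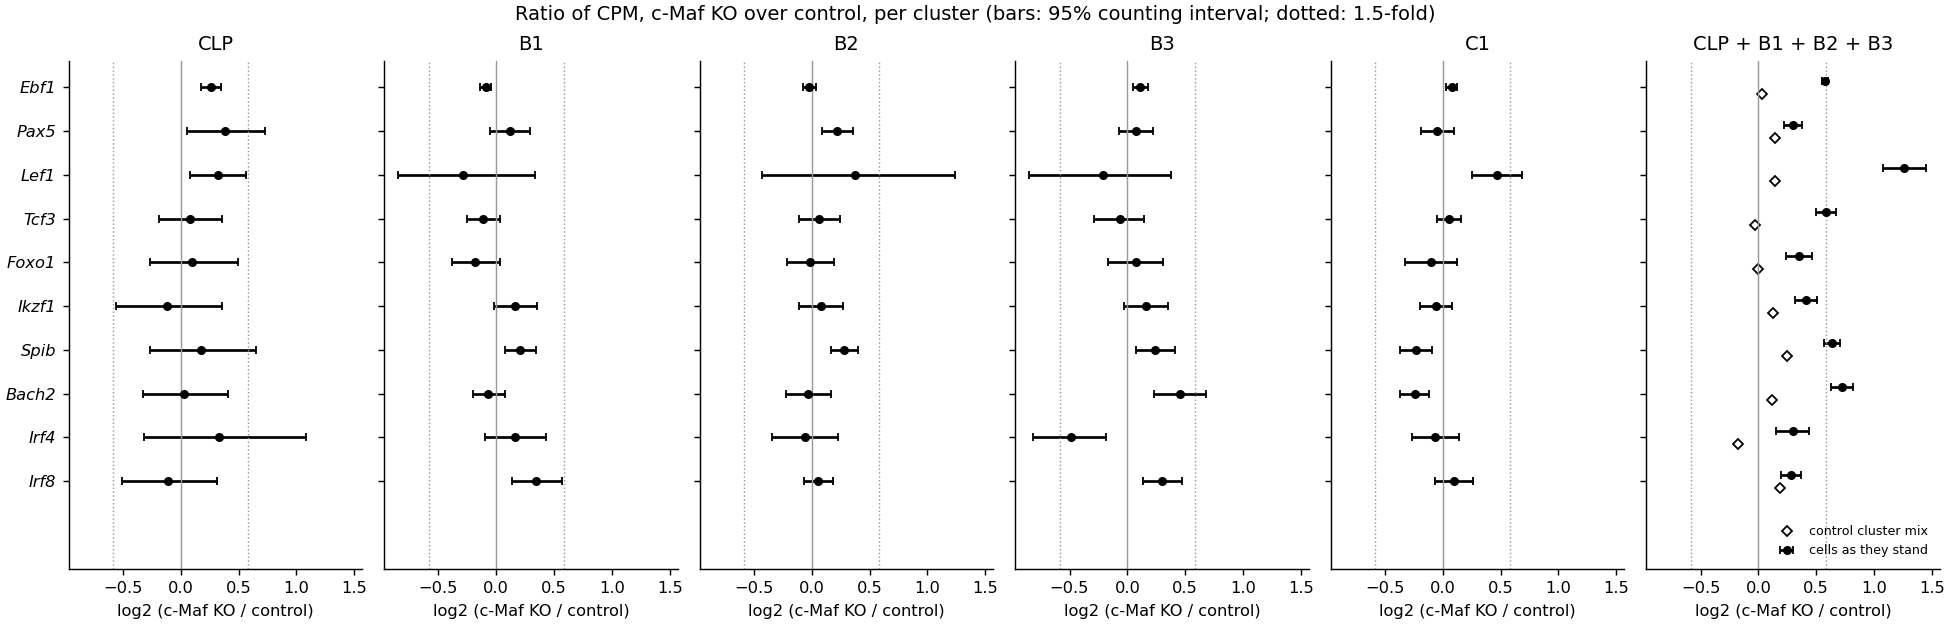
Log2 ratio of CPM, c-Maf KO over control, for each gene in 5 clusters and, at the right, in CLP, B1, B2 and B3 pooled; bars are 95% intervals for counting error, dotted lines mark 1.5-fold, and open diamonds give the pooled ratio with the control library's cluster mix. Within clusters each point lies inside the dotted lines, whereas in the pool Lef1 reaches 1.26 and returns to 0.15 with the same mix.

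The mice behind the 2 libraries differed too. B1 made up 34.9% of female-type and 50.2% of male-type B lineage cells in the c-Maf KO library, against 29.0% (25.7 to 32.4) and 6.11% (4.13 to 8.65) in the control library. The libraries thus lay closer in female-type than in male-type cells, a difference that was not tested. Within female-type cells of B3, 2 members were called higher (beside 7.1% of 5579 genes tested) and 1 lower (beside 4.3%). Bach2 had 147 CPM in female-type c-Maf KO cells, against 72.7 CPM in female-type control cells, Irf8 had 219 CPM against 130.4 CPM, and Irf4 had 46.3 CPM against 87.1 CPM. Within male-type B3 cells none of them was called: Bach2 had 74.9 CPM in c-Maf KO and 91.1 CPM in control cells, Irf8 had 203 and 200.3 CPM, and Irf4 had 54.8 and 61.4 CPM. The median depth of female-type B3 cells was 3347 UMIs in the c-Maf KO library and 5500.0 UMIs in the control library, and its part in these values was not tested.

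In male-type cells of B1, Spib was called higher, with 738 CPM in c-Maf KO cells and 382 CPM in control cells (33 UMIs in 29 control cells), beside 2.27% of 2996 genes tested. In female-type B1 cells Spib had 627 CPM in the c-Maf KO library and 613 CPM in the control library (0.03, -0.13 to 0.20). The difference of Spib in B1 over all cells thus stood beside a called difference in male-type cells and a ratio near equality in female-type ones, and whether the types differ was not tested. None of the 10 members was called lower in male-type B1 cells, beside 2.47%.

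**Figure D3:**
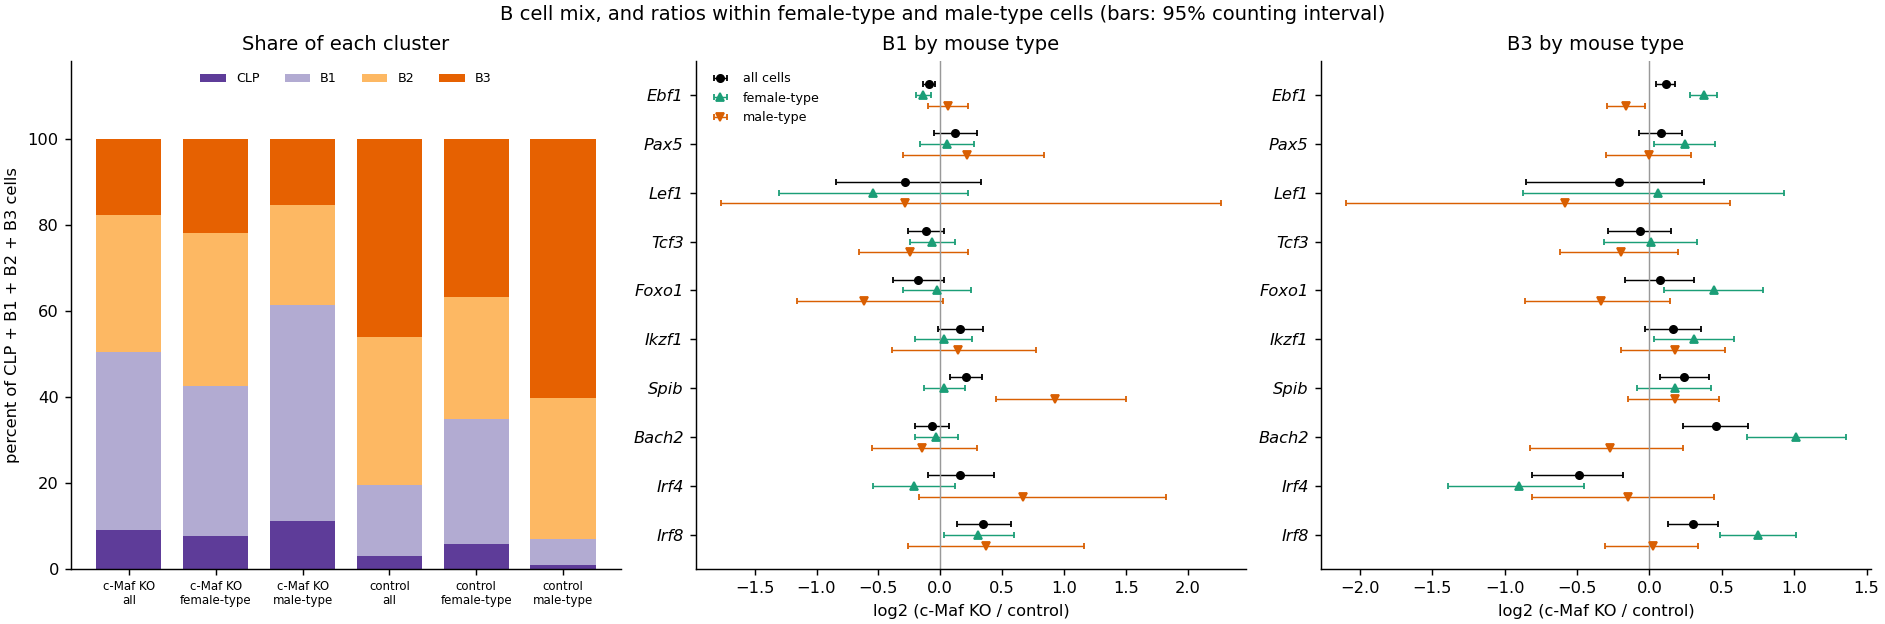
Left, share of CLP, B1, B2 and B3 among the cells of the 4 clusters, for all cells, female-type and male-type cells of the c-Maf KO and control libraries; middle and right, log2 ratios of CPM (c-Maf KO over control) in B1 and B3 for all cells, female-type and male-type cells, with 95% counting intervals. B1 takes 50.2% of male-type cells in the c-Maf KO library and 6.11% in the control library, and for B3 the Bach2 ratio lies at 1.01 (female-type) and -0.27 (male-type).

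C1, the cycling cluster, was led by histone genes and by the granule genes Mpo and Elane, yet most of its cells were of the B lineage. Cells with UMIs of at least 2 of Cd79a, Cd79b, Vpreb1, Vpreb3 and Igll1 made up 92.9% of C1 in the c-Maf KO library and 87.9% in the control library, against 18.3% and 18.1% of Leukocytes_1 (median 8929 and 9462 UMIs), and 9.88% and 7.08% of neutrophils. These B-marked cells held 96.2% or more of the C1 UMIs of each member but Irf8 in both libraries. Of Irf8 they held 88.4% in the c-Maf KO library and 71.5% in the control library, and the other C1 cells had 286 CPM of Irf8 in the c-Maf KO library and 383 CPM in the control library. Those other cells had a median of 3558 UMIs in the c-Maf KO library and 804 UMIs in the control library.

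Early-marked cells, with UMIs of at least 2 of Vpreb1, Igll1 and Dntt, made up 27.8% (24.3 to 31.4) of C1 in the c-Maf KO library and 22.1% (17.3 to 27.5) in the control library, a split added after Lef1 and those genes were seen to differ there. Their median depth was 14023 UMIs in the c-Maf KO library and 14582.5 UMIs in the control library. B-marked cells without early marks had medians of 6884 and 8675 UMIs, and the part of depth in this split was not tested. Lef1 over all of C1 had 109 CPM in the c-Maf KO library, against 79.0 CPM in the control library (0.46, 0.25 to 0.68). In early-marked cells it had 208 CPM in the c-Maf KO library, against 171 CPM in the control library, and in B-marked cells without early marks 46.0 CPM against 43.6 CPM. Lef1 thus had its higher level in the early-marked cells in both libraries.

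Bach2 and Spib differed most within the early-marked cycling cells. Bach2 had 145 CPM in c-Maf KO early-marked cells, against 253 CPM in control early-marked cells (-0.80, -1.04 to -0.56). Spib had 85.3 CPM in c-Maf KO early-marked cells, against 147 CPM in control early-marked cells (-0.78, -1.09 to -0.47). Both were called lower, 2 of 10 members, beside 2.66% of 6252 genes tested, and none was called higher, beside 2.18%. In B-marked cells without early marks Bach2 had 303 CPM in the c-Maf KO library, against 311 CPM in the control library, and Spib had 269 CPM against 282 CPM, so that neither was called there. Irf8 was called higher in those cells, with 149.9 CPM in the c-Maf KO library and 98.8 CPM in the control library (0.60, 0.35 to 0.86), beside 1.76% of 7401 genes tested, and none was called lower, beside 2.32%. The control side rests on 60 early-marked cells. In male-type C1 cells, 22 of them in the control library, Bach2 (206 CPM in c-Maf KO and 436 CPM in control cells) and Spib (198 and 300.3 CPM) were called lower, beside 5.35% of 4801 genes tested, and none was called higher, beside 3.62%. In female-type C1 cells neither was called: Bach2 had 231 CPM in c-Maf KO and 251 CPM in control cells, and Spib had 156 and 209.8 CPM.

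**Figure D4:**
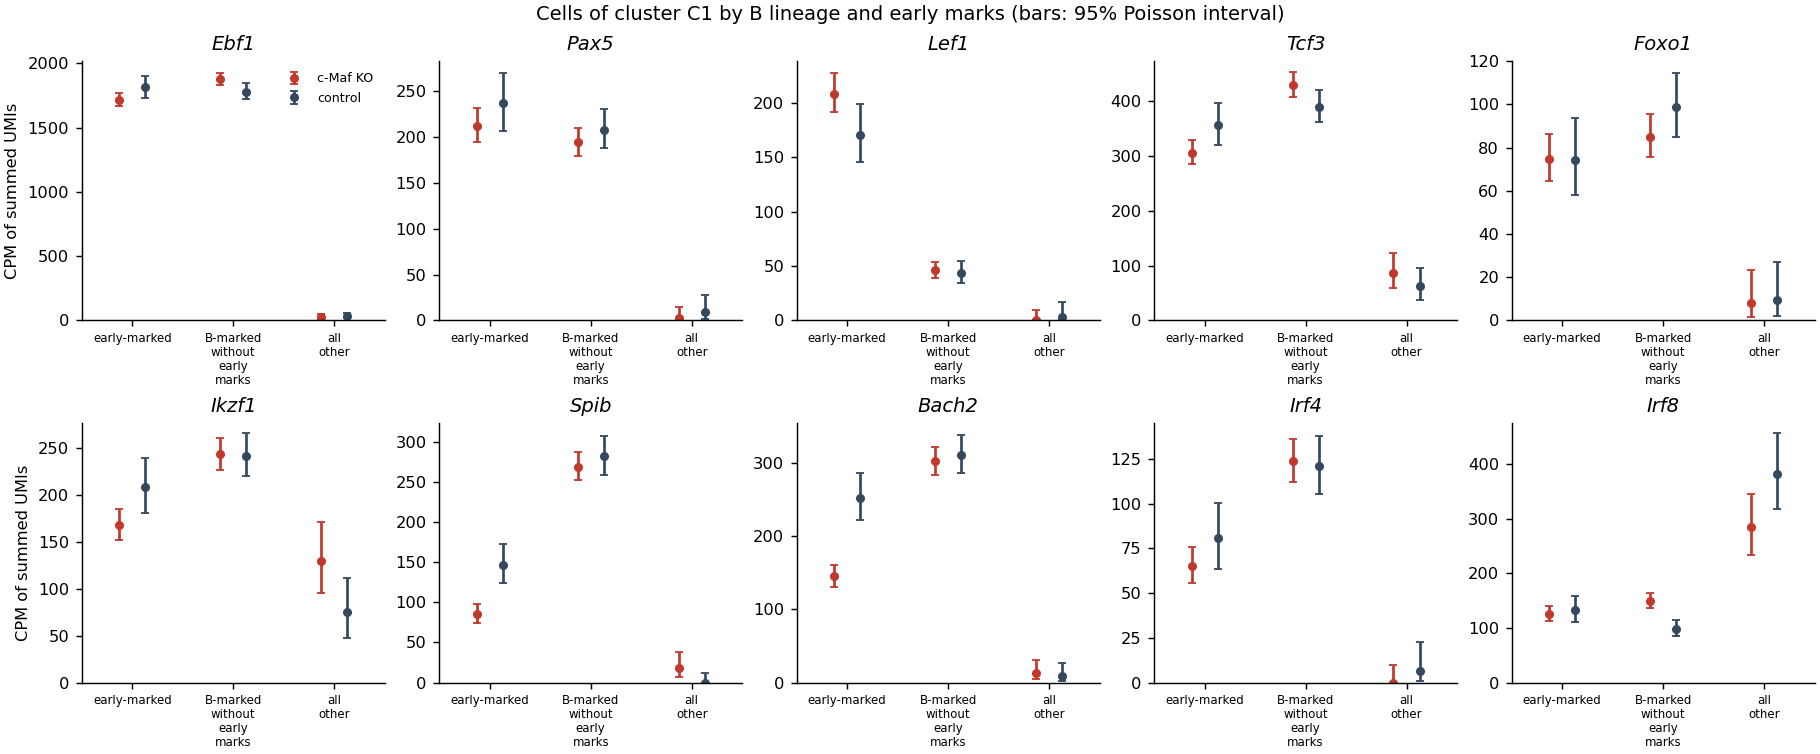
Level of each gene (CPM of summed UMIs, y axes linear from 0) in C1 cells with early marks, with B lineage marks and no early marks, and in all other C1 cells; red is c-Maf KO, dark blue is control, and bars are 95% Poisson intervals. Bach2 in early-marked cells lies at 145 CPM in c-Maf KO and 253 CPM in control cells, and Irf8 is the one gene with its highest level in the other cells.

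The members also varied with the deposited cell cycle call among the B-marked cells of C1, in the same direction in both libraries for most genes. Cells called G2M had 1.73-fold the Bach2 level of cells called S in the c-Maf KO library and 1.90-fold in the control library, and 1.66-fold and 2.21-fold the Irf4 level. Foxo1, Spib, Ebf1, Tcf3 and Ikzf1 likewise had higher levels in cells called G2M in both libraries, at 1.24-fold to 1.77-fold. Lef1 and Pax5 went the other way. Lef1 had 101 CPM in cells called G2M and 145 CPM in cells called S in the c-Maf KO library, and 65.8 and 136 CPM in the control library. Pax5 had 194 and 219 CPM in the c-Maf KO library, and 203 and 251 CPM in the control library. Irf8 had 139 CPM in either call in the c-Maf KO library, and 101 CPM (G2M) and 132 CPM (S) in the control library. No cycling was read from these calls, and free RNA can enter them.

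Most cells of the 4 clusters held a UMI of Ebf1: 100% of 239 c-Maf KO and of 55 control CLP cells, 99.6% and 99.3% in B1, 97.1% and 97.2% in B2, and 98.3% and 99.6% in B3. In cluster S, 1 of the endothelial clusters, 4.48% of 223 c-Maf KO cells (median 2909 UMIs) and 1.67% of 1320 control cells (median 1865 UMIs) held one. Lef1 was found in 85.8% of c-Maf KO and 92.7% of control CLP cells, and in 7.72% and 10.5% of B1 cells, against 0 of 223 c-Maf KO cells of S, which allows a share of cells with a UMI of up to 1.35%, and 0.606% of control cells of S. Other clusters held it too, with 5.18% of c-Maf KO and 2.61% of control K cells. At 1000 UMIs per cell Lef1 was in 2.98% (2.06 to 4.16) of c-Maf KO and 2.39% (0.97 to 4.86) of control B1 cells, and in 1.34% (0.16 to 4.76) of c-Maf KO and 0.461% (0.10 to 1.34) of control K cells. The counts were 33 of 1107 B1 and 2 of 149 K cells in the c-Maf KO library, and 7 of 293 and 3 of 651 in the control library. The intervals of B1 and K overlap within each library. The shares were not compared directly, and an overlap of intervals does not decide whether they differ. In S, at the same depth, 0 of 181 c-Maf KO cells held it (exact interval 0 to 2.02%). Of control S cells 0.192% (0.02 to 0.69) did. These intervals lie below those of B1, narrowly so in the c-Maf KO library. The intervals of Lef1 in B1 thus lay clear of those in S and overlapped those in K. Irf8 had its UMIs in 22.0% of c-Maf KO and 20.8% of control S cells, so that S is no background for it.

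At equal depth, with each cell thinned to 1000 UMIs, CLP cells held a mean of 3.14 of the 10 members in the c-Maf KO library and 3.29 in the control library. The means were 3.31 and 3.37 in B1, 2.69 and 2.56 in B2, 1.89 and 1.77 in B3, and 2.21 and 2.29 in C1. Cells with none of the members made up 2.64% of c-Maf KO and 3.12% of control B2 cells, and 8.98% of c-Maf KO and 8.66% of control B3 cells. Ebf1 and Pax5 met in 31.3% of c-Maf KO CLP cells, with a product of their shares of 30.9%, and in 23.6% of control CLP cells, with a product of 24.1%. Irf8 and Spib shared 15.1% of c-Maf KO B2 cells, with a product of 16.0%, and 14.6% of control B2 cells, with a product of 12.1%.

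Other regulators and known targets of the members were read from lists drawn up from textbook knowledge. The lists share genes such as Xbp1, Vpreb1 and Igll1, so they are not separate from each other. Some also hold members: Spib is among the Ebf1 and Pax5 targets, and Ebf1 is in the E protein list. Ikzf1 is among the Foxo1 targets and the Irf4 and Irf8 targets. Of 42 other B lineage regulators, 2 were called higher and 2 lower of 25 tested in CLP, 1 and 0 of 33 in B1, 1 and 1 of 36 in B2, 1 and 0 of 35 in B3, and 0 and 3 of 39 in C1. Beside them, the shares of all genes called higher and lower were 2.3% and 3.14% in CLP, 2.05% and 1.66% in B1, 1.95% and 1.69% in B2, 1.8% and 1.26% in B3, and 1.49% and 2.2% in C1, and the same shares stand beside the target lists that follow. A single called gene in a list is too few to set the list apart from them. Bcl11a, a zinc finger gene of early lymphoid cells, had 124 CPM in c-Maf KO B1 cells, against 71.0 CPM in control B1 cells. Tcf12, the gene of another E protein, had 130.2 CPM in c-Maf KO CLP cells, against 77.3 CPM in control CLP cells. Myc had 24.3 CPM in c-Maf KO B2 cells, against 49.99 CPM in control B2 cells. The median log2 ratio of the list stayed between -0.09 in C1 and 0.08 in B3, where it stood beside 0.03 over all genes with at least 20 UMIs.

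Of 23 genes that Ebf1 and Pax5 are known to activate, 0 of 18 tested were called in B1, 2 of 20 were called higher in B2 (Cplx2 and Cr2) and 1 of 20 in B3 (Cplx2). In C1, 3 of 21 were called higher, all of them surrogate light chain genes: Vpreb1 had 514 CPM in c-Maf KO cells, against 313 CPM in control cells, Igll1 had 363 CPM against 232 CPM, and Vpreb2 had 84.9 CPM against 41.6 CPM. Cd55 and Rasgrp3 were called lower there. In CLP 1 of 16 was called higher (Fcrla, 155 CPM in c-Maf KO and 92.1 CPM in control cells), and the median of the list was 0.25 beside -0.02 over all genes with at least 20 UMIs.

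Of 13 genes that Pax5 represses, 2 of 4 tested in CLP were called lower, Notch1 and Xbp1. Xbp1, a plasma cell factor, had 97.6 CPM in c-Maf KO and 175 CPM in control cells. In B2 1 of 4 was called higher, again Xbp1, with 70.5 CPM in c-Maf KO and 34.2 CPM in control cells, and in C1 1 of 7 was called lower, Xbp1 once more. Plasma cell markers, a list that holds Xbp1, moved with it in B2, where 2 of 3 tested were called higher and the 4 genes summed to 931 CPM in the c-Maf KO library, against 508 CPM in the control library. Their part in the Xbp1 value was not tested. None of 3 in B1 or 5 in B3 was called.

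Of 14 Foxo1 targets, 1 of 12 tested was called in B2: Il7r, the receptor for the precursor cytokine interleukin 7, had 26.2 CPM in c-Maf KO cells (72 UMIs), against 3.70 CPM in control cells (8 UMIs; log2 ratio 2.74, 1.77 to 4.09). Early precursor markers moved with it in B2: Vpreb1 had 28 UMIs in the c-Maf KO library and 3 in the control library, Igll1 had 15 and 0, and the 9 markers of that list, which holds Il7r, summed to 59.9 CPM in the c-Maf KO library, against 16.2 CPM in the control library. Their part in the Il7r value was not tested. Klf2 was called higher in CLP and Cdkn1b in B1, 1 of 11 and 1 of 13 tested, and none of 11 in B3 or 13 in C1 was called. Of 11 targets of Irf4 and Irf8, none was called among the 2 to 7 tested per cluster. In the E protein list of 10 genes, Dntt, Igll1 and Vpreb1 were called higher and Id2, an inhibitor of E proteins, lower among 10 tested in C1. Tcf12 was called higher among 8 in CLP, and none was called in B1, B2 or B3.

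Markers of other cell types moved with some of these values. The 7 macrophage markers summed to 13.6 CPM in c-Maf KO B1 cells, against 87.9 CPM in control B1 cells, and to 26.4 CPM in c-Maf KO C1 cells, against 93.2 CPM in control C1 cells, with none of the 7 at 0 in either cluster, and 5 of 5 tested were called lower in C1. Over CLP, B1, B2, B3 and C1 these sums ranged between 13.6 and 51.1 CPM in the c-Maf KO library, and between 41.6 and 93.2 CPM in the control library. Only in CLP was the sum higher in the c-Maf KO library, at 51.1 CPM against 41.6 CPM. Erythroid markers summed to 36.0 CPM in c-Maf KO B2 cells, against 113 CPM in control B2 cells, and to 19.6 CPM in c-Maf KO B3 cells, against 57.6 CPM in control B3 cells, with 3 of 3 tested called lower in each. In C1 the erythroid sum was higher in c-Maf KO cells, at 45.2 CPM against 35.2 CPM in control cells. Endothelial markers summed to 384 CPM in c-Maf KO CLP cells, against 692 CPM in control CLP cells, and hepatocyte markers to 28.4 CPM in c-Maf KO B1 cells, against 96.9 CPM in control B1 cells. In CLP the hepatocyte sum was higher in c-Maf KO cells, at 164 CPM against 134 CPM in control cells. Neutrophil markers went the other way in 4 clusters. In the c-Maf KO library they summed to 157, 192, 170 and 130 CPM in CLP, B1, B2 and B3, against 119, 135, 135 and 95.4 CPM in the control library. In C1 they summed to 1766 CPM in c-Maf KO cells, against 1943 CPM in control cells. The part of these markers in the member values was not tested. Without cells holding 2 or more markers of another cell type, 5 of 50 member ratios left the interval given by all cells. Lef1 in CLP was among them, at 0.02 (-0.31 to 0.37).

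Outside the B lineage the members parted from each other. Cells in the deposited cluster CMP had 3106 CPM of Irf8 in the c-Maf KO library and 2917 CPM in the control library, and 326 and 308 CPM of Spib. T cells of cluster T-Cd6 had 397 CPM of Lef1 in the c-Maf KO library and 407 CPM in the control library, and those of T-Foxp3 had 77.9 and 93.2 CPM. Among other clusters of at least 50 cells, T-Cd6 had the highest Lef1 level and CMP the highest Irf8 and Spib levels, in both libraries. Ikzf1 was found in blood cells at large, with 226 CPM in c-Maf KO and 266 CPM in control CMP cells and 162 and 130.4 CPM in neutrophils, and it was near 0 in cluster S (2.12 and 3.51 CPM). Foxo1, Tcf3 and Irf8 were also found in endothelial cells. Foxo1 had 108 CPM over the endothelial clusters of the c-Maf KO library and 119.6 CPM over those of the control library, and Tcf3 had 78.2 and 64.5 CPM.

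**Figure D5:**
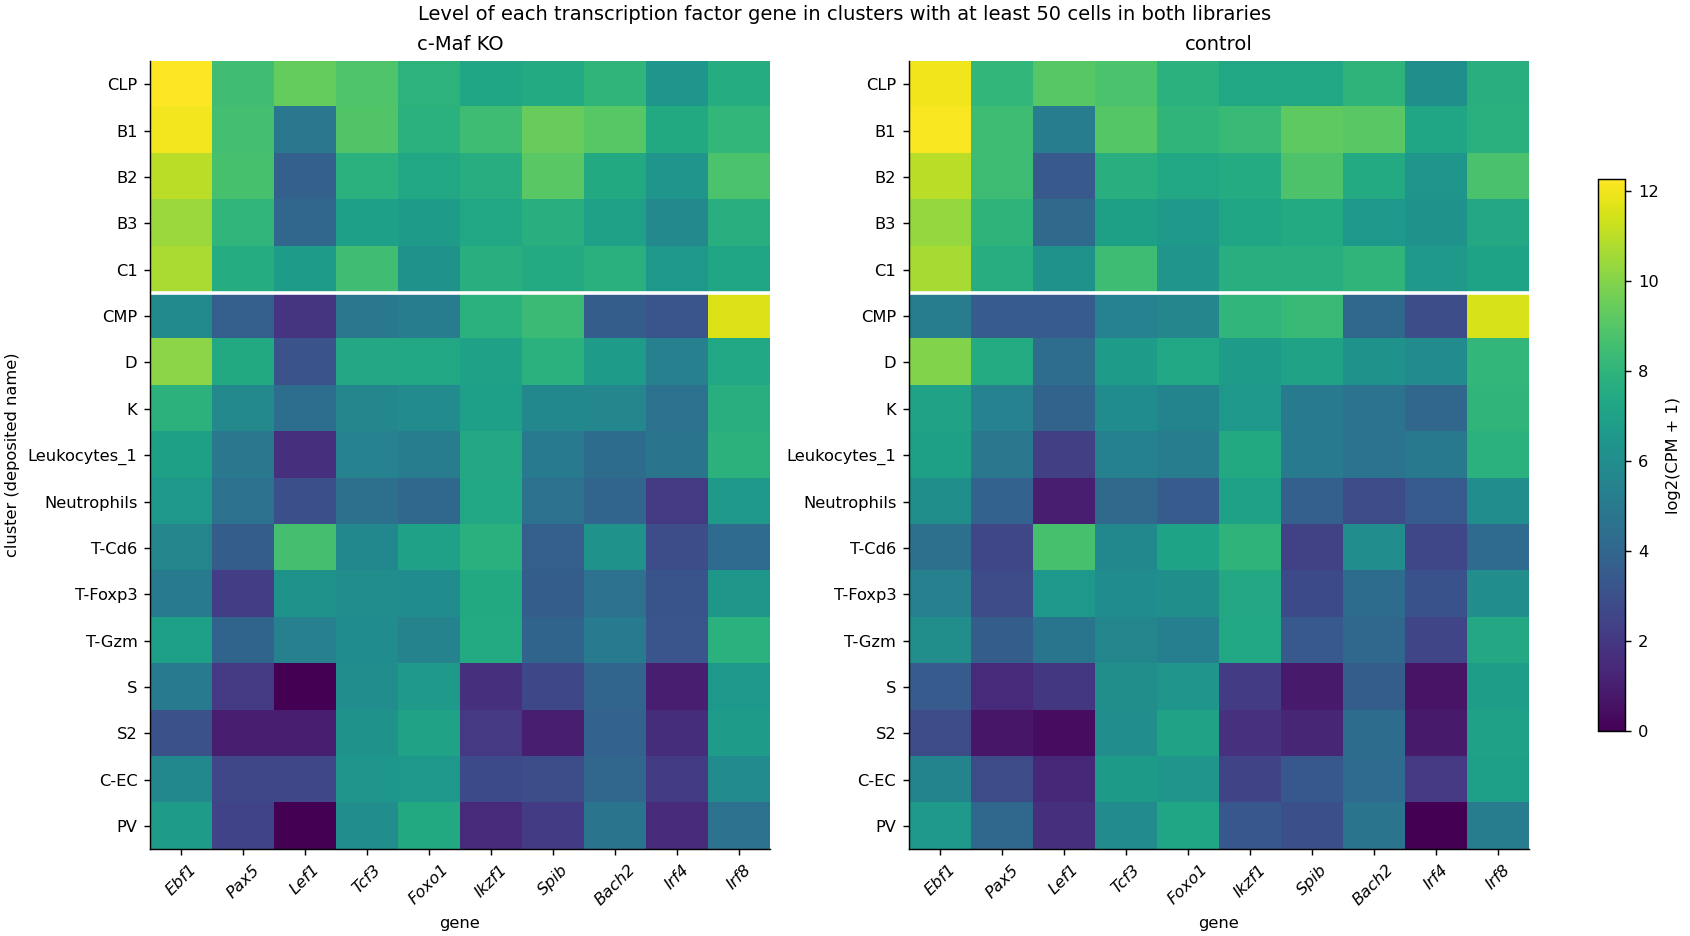
Level of each gene as log2(CPM + 1), on 1 color scale, in clusters with at least 50 cells in both libraries, c-Maf KO at the left and control at the right; the white line parts CLP, B1, B2, B3 and C1 from the other clusters, whose deposited names are given. Irf8 is brightest in CMP (3106 and 2917 CPM), Lef1 in CLP and T-Cd6, and Foxo1, Tcf3 and Irf8 extend into the endothelial clusters S, S2, C-EC and PV.

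Endothelial cells fell into different deposited clusters in each library: KOS_1 held 1356 c-Maf KO cells and 1 control cell, S2 held 113 and 1459, and C-EC held 408 and 89. Pooled over these clusters, 3 of 10 members were called higher in the c-Maf KO library (Ebf1, Pax5 and Spib), beside 14.2% of 11927 genes tested, and 1 lower (Irf8), beside 15.5%. Ebf1 had 35.0 CPM in c-Maf KO endothelial cells, against 11.0 CPM in control endothelial cells. B cell genes that are no transcription factors moved with it: Cd79a had 30.02 CPM in c-Maf KO endothelial cells, against 15.2 CPM in control endothelial cells, and Vpreb3 had 21.5 CPM against 5.60 CPM. Without the endothelial cells that held a UMI of any of the 5 B lineage marks, Ebf1 had 17.5 CPM in the c-Maf KO library, against 6.62 CPM in the control library (1.40, 1.07 to 1.76). Pax5 then had 9 UMIs in the c-Maf KO library and 11 in the control library (-0.64, -2.10 to 0.75), and Spib had 19 and 16 UMIs (-0.12, -1.16 to 0.94). Neither of these was above equality any longer. Within single clusters the Ebf1 ratio was 1.60 (0.84 to 2.33) in S, 0.36 (-1.10 to 1.39) in S2, 0.15 (-0.41 to 0.79) in C-EC and 0.19 (-0.32 to 0.75) in PV. Irf8 had 63.8 CPM in c-Maf KO endothelial cells, against 124 CPM in control endothelial cells (-0.96). Its ratio was -0.34 (-0.69 to -0.006) in S, -0.31 (-0.62 to -0.03) in S2 and -1.01 (-1.39 to -0.61) in C-EC. In PV it was -0.59 (-1.54 to 0.45), on 26 c-Maf KO and 15 control UMIs, so that the interval held equality. In cluster PV Ebf1 stood at 2.47 UMIs per Cd79a UMI in the c-Maf KO library and 1.78 in the control library, against 1.49 and 1.49 in CLP, 1.19 and 1.25 in B1, 0.42 and 0.40 in B3, and 0.94 and 0.49 in S. The PV values rest on few UMIs, 121 of Ebf1 and 49 of Cd79a in the c-Maf KO library and 41 and 23 in the control library. Those of S rest on 30 and 32 UMIs in the c-Maf KO library and 36 and 73 in the control library.

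Over 40 sets of cluster and library with at least 30 cells, the genes whose log2(CPM + 1) ran most like each member were named as a description, since the sets share libraries and B cell clusters weigh heavily. Ebf1 ran with Cd79a and Vpreb3 (each r = 0.97), and Pax5 with Cd79a and Cd79b (each 0.98). Spib ran with Blnk, Fcrla and Ly6d, Irf4 with Chst3, Pou2af1 and Cd79b, and Bach2 with Sorcs2, Neil1 and N4bp2. Tcf3 ran with Bcl7a, Paip2 and Xrcc1, Foxo1 with Hdac7, Zfp266 and Sufu, and Ikzf1 with Rac2, Coro1a and Arhgap30. Lef1 ran with Sit1, Ubash3a and Jakmip1, and Irf8 with Tnni2, Scimp and Pkib, at 0.81 to 0.87. Among the members themselves Ebf1 and Pax5 were closest (0.97), and Irf8 and Foxo1 were farthest apart (-0.33).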

How the data were processed

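The authors deposited UMI counts for each library, as whole numbers by gene and cell barcode, and an annotation with cluster names, phase calls and the percent of mitochondrial UMIs per cell. The submitters' processing notes name mm10, Seurat 3.2.3, FastQC 0.11.3 and Cell Ranger 4.0.0, without their roles or order. UMI counts were summed per cluster and library over annotated cells and divided by the sum over all genes (CPM). Levels carry exact Poisson 95% intervals, shares exact Clopper-Pearson intervals (for a share of 0, the limit that 3 counts allow), and ratios exact conditional binomial intervals, with 0.5 UMI added in log2 ratios. All cover counting error only. The depth was 9213138 UMIs in the c-Maf KO and 7941985 in the control B lineage clusters. Doublets were called with Scrublet (scanpy 1.11.5) and kept, at 2.09% of c-Maf KO and 1.68% of control cells. Ratios and calls were tested on simulated data. The members and lists were chosen with earlier results of these data known. Named genes were all members, Maf, up to 3 called genes per list, cluster and direction, the 3 genes most like each member, and cell type markers fixed in the same way. A gene of the planned B lineage marks is not reported here, and the marks were counted without it, over 5 genes. Likeness was Pearson's r over genes with at least 500 UMIs. Alternatives covered library size, cell filters, mouse type, call limits and thinning. Python 3.11.15, numpy 2.4.6, scipy 1.17.1 and pandas 2.3.3 were used. Barcodes without annotation entered no call; their values stand under the other observations.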

Additional observations from a re-analysis of the deposited data

Results flagged for a closer look

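In 5 of the 50 comparisons of a member in a cluster, the c-Maf KO to control ratio (log2) lay on opposite sides of equality in female-type and male-type cells, with both 95% counting intervals excluding equality. The share of all genes that meet this rule was not computed, so the count does not set the members apart. Each type is 1 mouse per library, and the difference between the types was not tested. Ebf1, the factor that specifies the B lineage, had 0.29 in the female-type cells of CLP and -0.35 in the male-type ones, where the control library held 4 male-type cells. In B2 Ebf1 had 0.10 (female-type) and -0.18 (male-type), and in B3 it had 0.37 (female-type) and -0.16 (male-type). Tcf3 in B2 had 0.33 (female-type) and -0.49 (male-type), and Irf8 in B2 had 0.25 (female-type) and -0.27 (male-type). None of these values reached 1.5-fold.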

How the results depend on the processing

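No paired analysis was possible because each group holds 1 library. The count of 0 called members held in CLP, B1, B2, B3 and C1 under both other library sizes, with each cell weighted alike, with stricter cells, without doublets, without cells with markers of another cell type, and in cells called G1, and in B3 also in cells with class II transcripts and no Vpreb3 or Rag1, chosen after seeing the data. A 2-fold limit and a lower minimum of UMIs, or none, could not alter a count of 0 here, since all 10 members had been tested. The count was 3 in female-type cells of B3 (Bach2, Irf4, Irf8), 1 in male-type cells of B1 (Spib), 2 in male-type cells of C1 (Spib, Bach2), 2 in early-marked cells of C1 (the same 2 genes) and 1 in C1 cells with B marks and no early marks (Irf8). Pooled over CLP, B1, B2 and B3, 3 members were called, and 0 reached 1.5-fold with the control cluster mix; the change in mix is the alternative's own construction. Of the 50 ratios of a member in a cluster, 30 in male-type cells and 15 in female-type cells left the interval of all cells, against 0 with either other library size. Male-type values rest on 4 control cells in CLP, 29 in B1 and 22 in C1, and the cause of these moves was not tested. C1 held 10 c-Maf KO and 6 control cells called G1, too few to read. Depth limits Lef1 in B2 (35 c-Maf KO and 21 control UMIs) and Irf4 in CLP (94 and 23 UMIs). At 1000 UMIs per cell the share of CLP cells with a Lef1 UMI was 43.8% in the c-Maf KO and 47.3% in the control library.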

Other observations

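In the barcodes without a deposited annotation, 892 in the c-Maf KO library and 1369 in the control library, Ebf1 had 249.7 CPM in the c-Maf KO library and 194 CPM in the control library. Irf8 had 138 CPM in the c-Maf KO library and 223 CPM in the control library. Cluster D held Ebf1 at 1129 CPM in 72 c-Maf KO cells and 969.6 CPM in 56 control cells, and Pax5 at 176 and 186 CPM, the highest levels of both genes among the other clusters of at least 50 cells.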
